A study of Mus musculus with 5 samples.

Results

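The genes examined here were the chemokine receptor gene Cxcr2 and 4 chemokine genes that act on neutrophils through it, Cxcl1, Cxcl2, Cxcl3 and Cxcl5, which are 5 of the 33696 genes measured in the MC38 tumor libraries. The genes were chosen by name, with earlier results of these data known. The cells in which they are described were chosen by measured values, namely the UMIs of marker genes for the cell class and the hashtag counts for the treatment, so differences between cell classes are given as a description with no test. MC38 is a mouse colorectal adenocarcinoma line. Male C57BL/6J mice aged 8 to 10 weeks carried MC38 tumors under the skin and were given either isotype control antibodies or checkpoint inhibitors (CPI, anti-PD-1 combined with anti-CTLA4), 3 doses between day 3 and day 9, and on day 12 either vehicle or 20 mg/kg of ABT-317, a JAK1-selective inhibitor. The labels count the harvest day from implantation, while the study's text also has these mice enrolled once a minimal tumor size was reached, so the day from which the doses were counted is uncertain. The groups were therefore isotype (isotype antibodies, then vehicle), CPI (both checkpoint antibodies, then vehicle), CPI + ABT-317 and isotype + ABT-317, all of them tumor bearing and harvested on day 15.

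CXCR2 is the G protein-coupled receptor through which neutrophils sense the CXC chemokines that carry the ELR motif, and it is needed for their release from bone marrow and their entry into inflamed tissue and tumors. Its ligands include CXCL1, CXCL2, CXCL3 and CXCL5, which macrophages, fibroblasts, epithelial cells and neutrophils themselves can make, mostly after NF-kB activation by interleukin-1, TNF or microbial products. In mouse tumors this axis is best known for drawing in neutrophils and granulocytic myeloid-derived suppressor cells.

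All 4 ligand genes lie on mouse chromosome 5 within 147 kb (GRCm38), at 90759298 to 90761625 for Cxcl5 (ENSMUSG00000029371), 90786101 to 90788093 for Cxcl3 (ENSMUSG00000029379), 90891245 to 90893121 for Cxcl1 (ENSMUSG00000029380) and 90903899 to 90905938 for Cxcl2 (ENSMUSG00000058427). Cxcr2 (ENSMUSG00000026180) lies on chromosome 1 at 74153994 to 74161246. Promoter sequence from RefSeq (GRCm38.p6, plus strand) matched 4 of the 5 genes, Cxcl1, Cxcl2, Cxcl3 and Cxcr2. The 120 bases before each start are printed as a description, and any part of them in the gene levels was not tested. Capitals mark the longest run of bases common to the first 3 of these promoters, GGGAATTTCCC, which resembles an NF-kB site, and the longest other common run, ATAAAAGG, which resembles a TATA box.
Cxcl1 promoter, chr5:90891125-90891244: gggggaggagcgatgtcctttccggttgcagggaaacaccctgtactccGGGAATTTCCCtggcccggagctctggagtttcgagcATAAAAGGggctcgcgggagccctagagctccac
Cxcl2 promoter, chr5:90903779-90903898: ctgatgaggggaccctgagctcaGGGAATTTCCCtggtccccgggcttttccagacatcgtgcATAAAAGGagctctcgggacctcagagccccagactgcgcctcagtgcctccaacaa
Cxcl3 promoter, chr5:90785981-90786100: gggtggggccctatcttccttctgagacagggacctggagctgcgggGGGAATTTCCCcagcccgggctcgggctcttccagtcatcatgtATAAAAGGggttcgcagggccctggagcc
Cxcr2 promoter, chr1:74153874-74153993: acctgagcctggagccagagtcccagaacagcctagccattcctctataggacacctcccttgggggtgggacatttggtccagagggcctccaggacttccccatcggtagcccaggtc

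Searched on both strands over the 250 bases before the start, GGGAATTTCCC was found in 14 of 32851 mouse promoters (0.0426%) and ATAAAAGG in 507 (1.54%), and both runs were taken from the sequences themselves. GGGAATTTCCC began 71, 97 and 73 bases before the start of Cxcl1, Cxcl2 and Cxcl3, and ATAAAAGG began 34, 57 and 29 bases before it, without overlap. Of all searched promoters, those holding both numbered 3 (0.00913%), namely Cxcl1, Cxcl2 and Cxcl3. Neither run occurred in the searched window of Cxcr2. The spliced Cxcl2 and Cxcl3 transcripts, of 1109 and 1016 bases, also share a run of 110 identical bases near their 5' ends (bases 61 to 170 of Cxcl2 and 57 to 166 of Cxcl3). Between the longer isoforms of 2066 and 3498 bases the run reaches 157 bases, the longest among the 8 isoform pairs. Those isoforms exceed the gene spans given above (2040 bases for Cxcl2 and 1993 for Cxcl3), so they follow another gene model than the coordinates. Whether the 157-base run applies to the gene model behind the counts was not tested. Since these were 5' libraries, reads that lay wholly in a shared run could not be assigned to either gene. Low Cxcl3 counts beside very high Cxcl2 counts are uncertain for that reason.

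The tumors were sorted into CD45+ and CD45- cells and mixed 1:1, labeled with 1 hashtag antibody per treatment and run as 2 droplet reactions, with mice pooled under a hashtag. The reactions held 37774 and 27582 barcodes with 435031691 and 377184807 gene UMIs (median 6785 and 7079 per barcode), and 1416 barcode sequences occurred in both. After filters 35212 cells were used, of which 31108 carried 1 hashtag and 4104 none, while 21882 barcodes with several hashtags were left out. Hashtag separation was poorest for CPI, where the threshold lay at only 38 and 27 UMIs, and CPI cells were also the shallowest (median 2054 and 2548 UMIs per cell in reactions 1 and 2, against 5262 and 6970 for isotype, 16578 and 19770 for CPI + ABT-317 and 16333 and 23956 for isotype + ABT-317). Requiring a clear lead of 1 hashtag, with or without a background correction, kept all 6 member calls in macrophages and both in Ptprc-low cells. Without the correction, the 2 CPI contrasts called 2563 and 1454 of 9281 genes in macrophages and 1234 and 275 of 14681 in Ptprc-low cells. That lead also kept the fibroblast-like member calls of these contrasts (1053 and 218 of 4564 genes called), but with partly other cells. CPI fibroblast-like cells went from 879 and 677 to 293 and 187, and CPI + ABT-317 ones from 11 and 23 to 32 and 43. A depth-matched fit of the CPI contrasts could be made in macrophages only.

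Over the 2 whole libraries Cxcl2 was the most abundant of the 5 genes, at 650 and 735 CPM (a gene's UMIs per 1000000 gene UMIs) in reactions 1 and 2. Cxcl1 followed with 183 and 214 CPM. Cxcl3 (5.36 and 4.45 CPM), Cxcr2 (1.59 and 0.997 CPM) and Cxcl5 (0.779 and 0.673 CPM) were rare. CPM here counts molecules rather than fragments, so gene length does not enter. The 3 tumor-draining lymph node libraries of the same study are not a matched comparison, since they came from unsorted cells and, by the study's text, from mice with TRAMP-C2 prostate tumors. There the same genes were low, with Cxcl2 at 3.59 to 4.56 CPM and Cxcl5 at 0 UMIs.

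Cells were grouped into classes by fixed marker genes, giving 115 neutrophil-like, 10655 monocyte/macrophage-like, 235 dendritic cell (DC)-like, 1107 T-like, 1908 fibroblast-like, 246 pericyte/smooth muscle-like and 110 endothelial-like cells. A further 14046 cells with little Ptprc, the gene of CD45, met no class and are called Ptprc-low, and 6790 cells stayed unnamed. The treatments were mixed very unequally in these classes. Of the cells with 1 hashtag, isotype cells made up 83.6% and 83.5% of the monocyte/macrophage-like class and 49.7% and 50.6% of the Ptprc-low class, CPI cells made up 91.0% and 94.0% of the fibroblast-like class, and the neutrophil-like class was 54.2% and 39.4% isotype. Class levels over all cells therefore carry that mix, and for Cxcl1, Cxcl2 and Cxcl3 the levels within a treatment are given beside them. Tumor keratin genes summed to under 1 CPM in the Ptprc-low cells, so no class was called tumor-like.

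Cxcl2, a major neutrophil attractant of myeloid cells, was highest in the neutrophil-like cells, at 31634 CPM in reaction 1 and 23621 CPM in reaction 2 (27627 ± 5666, SD, n = 2 reactions). The monocyte/macrophage-like cells came next with 4229 and 4554 CPM (4392 ± 230), so the neutrophil-like level over all treatments was 7.48 and 5.19 times theirs. Within a treatment it was 5.32 and 1.56 times the macrophage level after isotype, 2.91 and 5.12 times after CPI and 9.46 and 13.2 times after CPI + ABT-317, higher in all 6. The lowest of these ratios rested on a pair of deep cells with few Cxcl2 UMIs, and without them it was 7.88. Every other named class lay below 1000 CPM in both reactions. Pericyte/smooth muscle-like (200 and 965 CPM), DC-like (548 and 505), T-like (517 and 372), fibroblast-like (334 and 263) and endothelial-like cells (187 and 237) followed, of which DC-like and T-like cells overlapped and the pericyte range overlapped with each of the others, and the Ptprc-low cells were lowest with 33.4 and 21.5 CPM. The high pericyte value of reaction 2 came from 16 isotype cells, which held 419 of its 516 UMIs.

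Nearly all neutrophil-like cells had a Cxcl2 UMI, 98.7% and 97.4% in the 2 reactions, as did 74.7% and 73.0% of monocyte/macrophage-like cells. T-like cells, which should make little of this chemokine, gave 34.6% and 20.1% at a median of 1104 and 1010 UMIs per cell. Macrophage markers summed to 2649 and 2366 CPM in them. The part of background or of doublets in their Cxcl2 was not tested. After thinning each cell to 500 UMIs the order was unchanged, at 95.6% and 94.2% in neutrophil-like, 53.3% and 54.3% in monocyte/macrophage-like and 18.3% and 10.3% in T-like cells. Because macrophages were so many more, they held 84.3% of the Cxcl2 UMIs of all used cells (mean of the reactions) and the neutrophil-like cells 1.61%.

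Cxcl3, a close relative of Cxcl2, was more restricted. Neutrophil-like cells had 2604 and 1065 CPM (194 and 75 UMIs, present in 39.5% and 38.5% of cells), against 22.4 and 21.3 CPM in monocyte/macrophage-like cells (495 and 579 UMIs), which is 116 and 50.0 times the macrophage level with all treatments together. Within a treatment the ratio was 108 and 18.4 after isotype, 5.04 and 10.2 after CPI and 96.8 and 66.9 after CPI + ABT-317, and without the same pair of deep cells the second isotype ratio was 93.4. T-like cells had 1.25 and 4.50 CPM and endothelial-like cells had no Cxcl3 UMI. Fibroblast-like cells differed between reactions, at 11.9 CPM (53 UMIs, 34 of them in 1 cell) and 1.70 CPM (7 UMIs). Per 100 Cxcl2 UMIs there were 8.23 and 4.51 Cxcl3 UMIs in neutrophil-like cells but 0.529 and 0.468 in monocyte/macrophage-like cells, with all treatments together. Within a treatment, over both reactions, neutrophil-like cells had 60 Cxcl3 beside 1016 Cxcl2 UMIs after isotype, 35 beside 981 after CPI and 110 beside 1262 after CPI + ABT-317. Macrophages had 536 beside 173537, 208 beside 10702 and 268 beside 22429 in the same order. The proportions of the classes thus differed in each treatment, but least after CPI. Of the Cxcl3 UMIs of all used cells, 65.2% were in monocyte/macrophage-like cells (mean of the reactions).

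Cxcl1, which stromal and epithelial cells commonly make, had another order, and one that depended on treatment. With all treatments together fibroblast-like cells were highest with 509 and 591 CPM (550 ± 58.0, SD, n = 2), which was 2.04 and 2.09 times the monocyte/macrophage-like level of 250 and 283 CPM and 3.1 times, in both reactions, the Ptprc-low level of 165 and 191 CPM. Within a treatment they were not the highest throughout. The fibroblast-like level was 1.29 and 0.802 times the macrophage level after isotype and 1.04 and 1.20 times after CPI, while after CPI + ABT-317 it was 0.555 and 0.607 times. Against the Ptprc-low cells it was 2.42 and 1.74 times after isotype, but 0.912 and 0.777 times after CPI and 0.779 and 0.603 times after CPI + ABT-317. The single isotype + ABT-317 sum of 24 cells stood at 1.92 times the macrophage and 3.17 times the Ptprc-low level. Pericyte/smooth muscle-like cells (210 and 344 CPM) did not differ from macrophages beyond their spread. The neutrophil-like level was poorly fixed, at 282 CPM in reaction 1 (21 UMIs, 95% Poisson interval 174 to 431) and 71.0 CPM in reaction 2 (5 UMIs, 23.1 to 166). After CPI + ABT-317 its mean was 714 CPM (12 UMIs), above macrophages (357), Ptprc-low (304) and fibroblast-like cells (207). After isotype and CPI it was 125 and 161 CPM (8 and 6 UMIs), below the macrophage means of 257 and 538. T-like (81.0 and 70.6), endothelial-like (57.1 and 61.2) and DC-like cells (17.4 and 16.9 CPM) were lowest. The Ptprc-low cells, which were many and deep, held 68.3% of the Cxcl1 UMIs of all used cells (mean of the reactions). Their share of cells with a Cxcl1 UMI, 42.5% and 45.0%, came down to 6.35% and 7.17% when cells were thinned to 500 UMIs.

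Cxcl5, best known from epithelial and stromal cells, was near the limit of detection. Fibroblast-like cells had 8.73 and 2.91 CPM (39 and 12 UMIs, in 1.29% and 0.732% of cells), or 14.1 and 8.44 times the level over all cells. Ptprc-low cells held more UMIs (52 and 36) at a lower level (0.371 and 0.208 CPM). Neutrophil-like cells had 0 UMIs, which allows up to 40.3 and 42.6 CPM, so Cxcl5 at the fibroblast level would not have been detectable there.

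**Figure D1:**
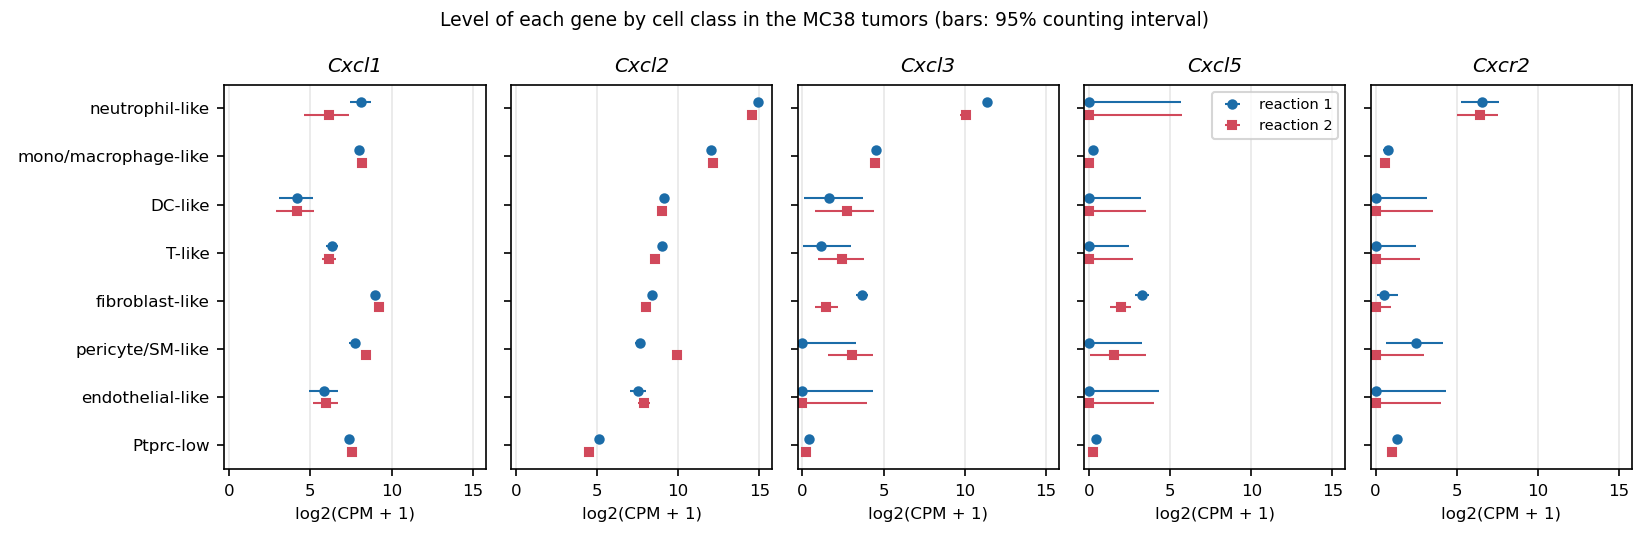
Level of each gene in the named cell classes as log2(CPM + 1), all treatments together, with a point per reaction and bars for the 95% Poisson interval of the summed UMIs. Cxcl2, Cxcl3 and Cxcr2 peak in the neutrophil-like cells (Cxcl2 at 31634 and 23621 CPM) and Cxcl1 and Cxcl5 in the fibroblast-like cells, which are mostly CPI cells, and the Cxcl1 peak does not hold in both reactions of isotype, CPI or CPI + ABT-317.

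**Figure D2:**
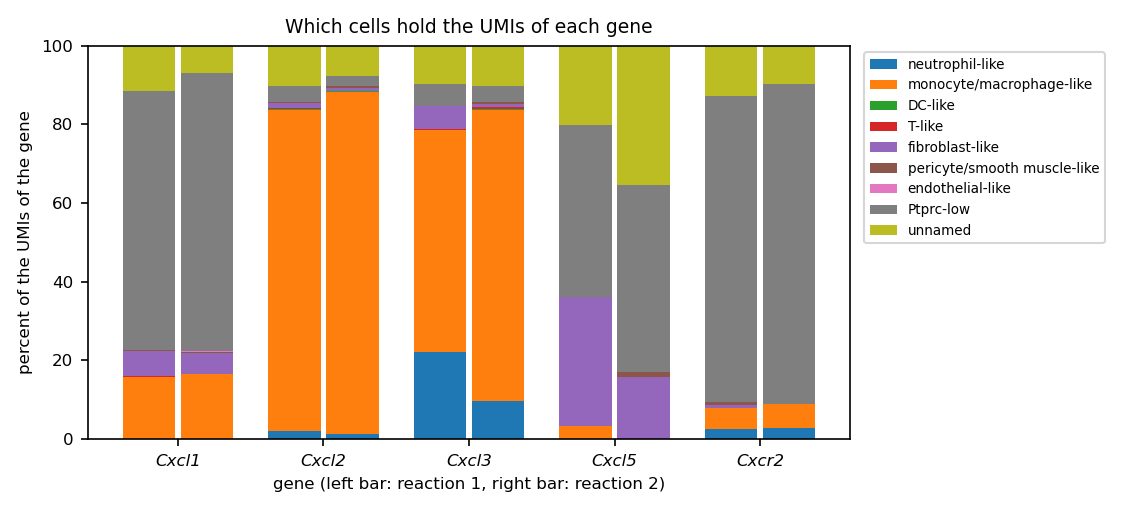
Percent of each gene's UMIs in the used cells that each cell class holds, with the left bar of a pair for reaction 1 and the right bar for reaction 2. Most of these Cxcl2 UMIs are in monocyte/macrophage-like cells (mean 84.3%). Most of these Cxcl1 and Cxcr2 UMIs are in Ptprc-low cells (means 68.3% and 79.6%), which are many and deep.

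The receptor gene Cxcr2 was highest in the neutrophil-like cells, at 93.9 CPM in reaction 1 (7 UMIs, 95% Poisson interval 37.8 to 194) and 85.2 CPM in reaction 2 (6 UMIs, 31.3 to 185), or 139 and 178 times the monocyte/macrophage-like level of 0.678 and 0.479 CPM. Its UMIs were found in 9.21% and 15.4% of the neutrophil-like cells. T-like cells had 0 UMIs, which allows up to 3.74 and 4.50 CPM. The 216 and 176 Cxcr2 UMIs of the Ptprc-low cells make up most of those in the used cells (79.6%, mean of the reactions), though not of the 690 and 376 in the whole libraries. The level behind them, 1.54 and 1.02 CPM, lay under what the T-like cells could have shown. DC-like and endothelial-like cells had no Cxcr2 UMI, and the pericyte/smooth muscle-like and fibroblast-like cells had 2 each, all in reaction 1.

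The markers that named the neutrophil-like class are described here and not tested. Its cells had S100a8 at 8845 and 5781 CPM, S100a9 at 10804 and 8863 CPM, and Csf3r, the G-CSF receptor gene, at 322 and 369 CPM. Of the 15 neutrophil markers 13 and 12 had a UMI, and their sum of 26869 and 20610 CPM compares with 47.5 to 1479 CPM in the other classes. Ly6g and Ngp, both granulocyte genes, had 0 UMIs. Macrophage markers summed to 3771 and 1520 CPM in the class, against 18955 and 22817 CPM in the monocyte/macrophage-like cells, and their part in the neutrophil-like chemokine levels was not tested. No doublet caller was run beyond the removal of barcodes with several hashtags.

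Surface antibody counts gave a readout that the class rule had not used. The Ly-6G antibody had a median of 59 and 75 UMIs per neutrophil-like cell and 20 to 27 in the other classes, and CD11b, the integrin alpha M of myeloid cells, had 105 and 125 against 9 to 119. The CD182 antibody, which binds CXCR2 itself, did not set the class apart, with 68 and 73 UMIs in neutrophil-like cells and 53 to 80 in the others. Isotype control antibodies had medians of 12 and 15 in neutrophil-like cells and 9 to 14 elsewhere. CXCR2 protein was thus not distinguishable on these cells with this antibody, although the RNA was highest there.

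**Figure D3:**
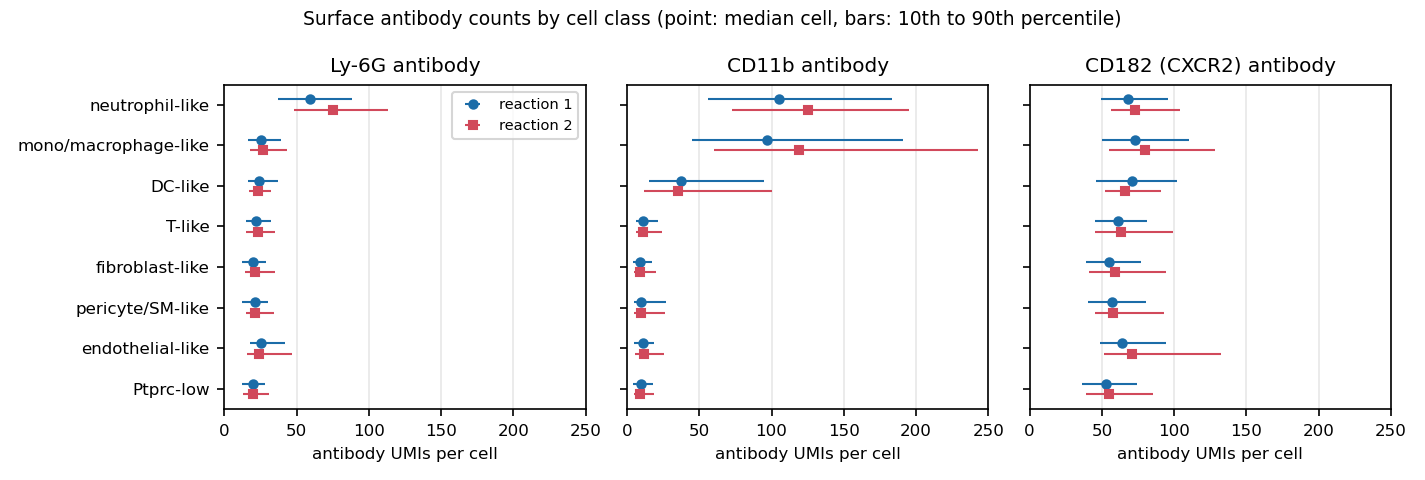
Antibody UMIs per cell for Ly-6G, CD11b and CD182 in each cell class and reaction, with points for the median and bars from the 10th to the 90th percentile. The Ly-6G medians of 59 and 75 in neutrophil-like cells lie above those of all other classes (20 to 27), while the CD182 medians of 68 and 73 lie within the range of the others (53 to 80).

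Within the neutrophil-like class 75 of 76 and 38 of 39 cells had a Cxcl2 UMI. The median cell had 21 and 44 Cxcl2 UMIs, equal to 2.02% and 5.63% of its RNA, and the highest cell reached 12.6% and 14.8%. Cxcl3 went up to 30 and 25 UMIs per cell, whereas no cell had more than 1 Cxcr2 UMI. Ligand and receptor occurred in the same cells, with both Cxcl2 and Cxcr2 UMIs in 6 cells of each reaction. The 7 and 6 cells with a Cxcr2 UMI had 18232 and 10775 CPM of Cxcl2, against 32909 and 29935 CPM in cells without one, and 309 and 259 CPM of Cxcl3 against 2822 and 1462 CPM. In reaction 2 a pair of cells of 18594 and 22647 UMIs held 58.6% of the class's UMIs but only 2 Cxcl2 UMIs and 1 Cxcr2 UMI, and without them the level in reaction 2 was 56956 CPM for Cxcl2, 2572 CPM for Cxcl3 and 171 CPM for Cxcr2. Without them the cells of reaction 2 with and without a Cxcr2 UMI had 53831 and 57542 CPM of Cxcl2, close to each other, and 1302 and 2810 CPM of Cxcl3, so the Cxcl2 contrast of that reaction rested on them. Treatment was also uneven in this split. Among cells with 1 hashtag, 6 Cxcr2 UMIs lay in isotype cells, 1 in CPI cells and 1 in CPI + ABT-317 cells. Its part in the ligand levels of cells with and without a Cxcr2 UMI was not tested.

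Neutrophil-like cells made up 0.694% and 0.296% of the cells in immune classes after isotype, 2.29% and 1.24% after CPI and 2.60% and 2.55% after CPI + ABT-317. After isotype + ABT-317 there were 0 of 328 cells, which allows a share of up to 0.915%, and 1 of 244 (0.410%). The counts behind these shares are 32 and 13, 19 and 8, and 8 and 11 cells, and the exact 95% intervals of CPI (1.39% to 3.56% and 0.538% to 2.43%) and CPI + ABT-317 (1.13% to 5.05% and 1.28% to 4.51%) overlap. Those of isotype (0.475% to 0.978% and 0.158% to 0.506%) lie below both within the same reaction. Across reactions, the first isotype interval overlaps the second CPI interval. Between any pair of treatments, each with 2 reactions, no exact test can pass 0.05, and requiring a clear lead of 1 hashtag put the CPI share at 0.915% and 0%, while a lead over background put it at 1.71% and 0.987%. The immune classes behind the shares were also mixed differently. Over both reactions CPI had 27 neutrophil-like beside 457 monocyte/macrophage-like and 950 T-like cells. CPI + ABT-317 had 19 beside 700 and 17, and isotype had 45 beside 8721 and 66. Per macrophage, neutrophil-like cells were thus more frequent after CPI than after CPI + ABT-317 with these hashtag calls.

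The next question was how checkpoint inhibition, and the JAK inhibitor given after it, moved the members within a class. UMIs were summed per treatment and reaction, and edgeR's quasi-likelihood test was adjusted over all genes tested in the class. The reactions may be technical replicates, since a hashtag names no mouse, so a p-value measures only the spread between reactions. The contrasts share sums (CPI is in both of the first 2, isotype in the first and the last), and differences between classes were not tested.

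In the monocyte/macrophage-like cells CPI was accompanied by higher levels of all 3 testable ligands, and the levels after CPI + ABT-317 were between those of CPI and isotype. Cxcl3 had 14.2 and 11.6 CPM after isotype (266 and 270 UMIs), 224 and 248 CPM after CPI (102 and 106 UMIs), 76.7 and 83.4 CPM after CPI + ABT-317 (100 and 168 UMIs) and 14.6 and 27.4 CPM after isotype + ABT-317 (20 and 35 UMIs). Cxcl2 had 3972 and 4266 CPM after isotype, 11354 and 12932 after CPI, 6924 and 6653 after CPI + ABT-317 and 3029 and 4166 after isotype + ABT-317. Cxcl1 had 237 and 277, 543 and 532, 380 and 335, and 222 and 266 CPM in the same order. For each of the 3 genes the isotype, CPI and CPI + ABT-317 values did not overlap, and those of isotype + ABT-317 overlapped with isotype for Cxcl2 and Cxcl1 and lay next to isotype for Cxcl3.

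Against isotype, CPI raised Cxcl3 18.9-fold (log2 4.24, SE 0.20, adjusted p = 1.16e-11), Cxcl2 3.06-fold (1.61, SE 0.17, adjusted p = 5.60e-07) and Cxcl1 2.16-fold (1.11, SE 0.15, adjusted p = 1.39e-05). These are 3 of 3 tested members, where 28.2% of the 9312 genes tested were called in the same contrast. After CPI + ABT-317 the same genes were lower than after CPI, Cxcl3 3.02-fold (log2 -1.59, SE 0.20, adjusted p = 1.23e-05), Cxcl2 1.85-fold (-0.89, SE 0.16, adjusted p = 0.000868) and Cxcl1 1.55-fold (-0.64, SE 0.15, adjusted p = 0.00696), with 17% of all genes called. Between isotype + ABT-317 and isotype 0 of the 3 passed, with 0.107% of genes called. Cxcr2 and Cxcl5 were too sparse to be tested, Cxcr2 with 13 and 10 UMIs after isotype, 0 in both CPI sums, 1 and 3 after CPI + ABT-317 and 1 and 0 after isotype + ABT-317.

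Depth and composition moved with these contrasts. CPI macrophages were few (254 and 203 cells) and shallow (median 1467 and 1845 UMIs, against 3019 and 3820 for isotype and 3509 and 4155 for CPI + ABT-317). Among cells of 1000 to 3000 UMIs the CPI increase of all 3 genes still passed (Cxcl3 log2 3.92, Cxcl2 1.58, Cxcl1 1.08, with 19.9% of 4355 genes called), but none of the 3 decreases after CPI + ABT-317 did (Cxcl3 -1.03, adjusted p = 0.236; Cxcl2 -0.29, adjusted p = 0.495; Cxcl1 -0.35, adjusted p = 0.474), where 5.72% of genes were called. With the study's limit of fewer than 2500 genes per cell the decrease passed for Cxcl3 (adjusted p = 0.00504) and did not for Cxcl2 (0.120) or Cxcl1 (0.246), with 11.4% of 8279 genes called. The Cxcl1 decrease also did not pass without the second CPI sum (adjusted p = 0.0564) or without the second CPI + ABT-317 sum (0.104). The summed neutrophil markers in the same macrophages were 218 and 219 CPM after isotype, 589 and 565 after CPI, 441 and 446 after CPI + ABT-317 and 200 and 221 after isotype + ABT-317, with 8 to 13 of the 15 genes detected and Ly6g and Ngp at 0 in every sum. S100a9 was at 0 in the first CPI sum, the second CPI + ABT-317 sum and both isotype + ABT-317 sums. Their part in the ligand levels was not tested.

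**Figure D4:**
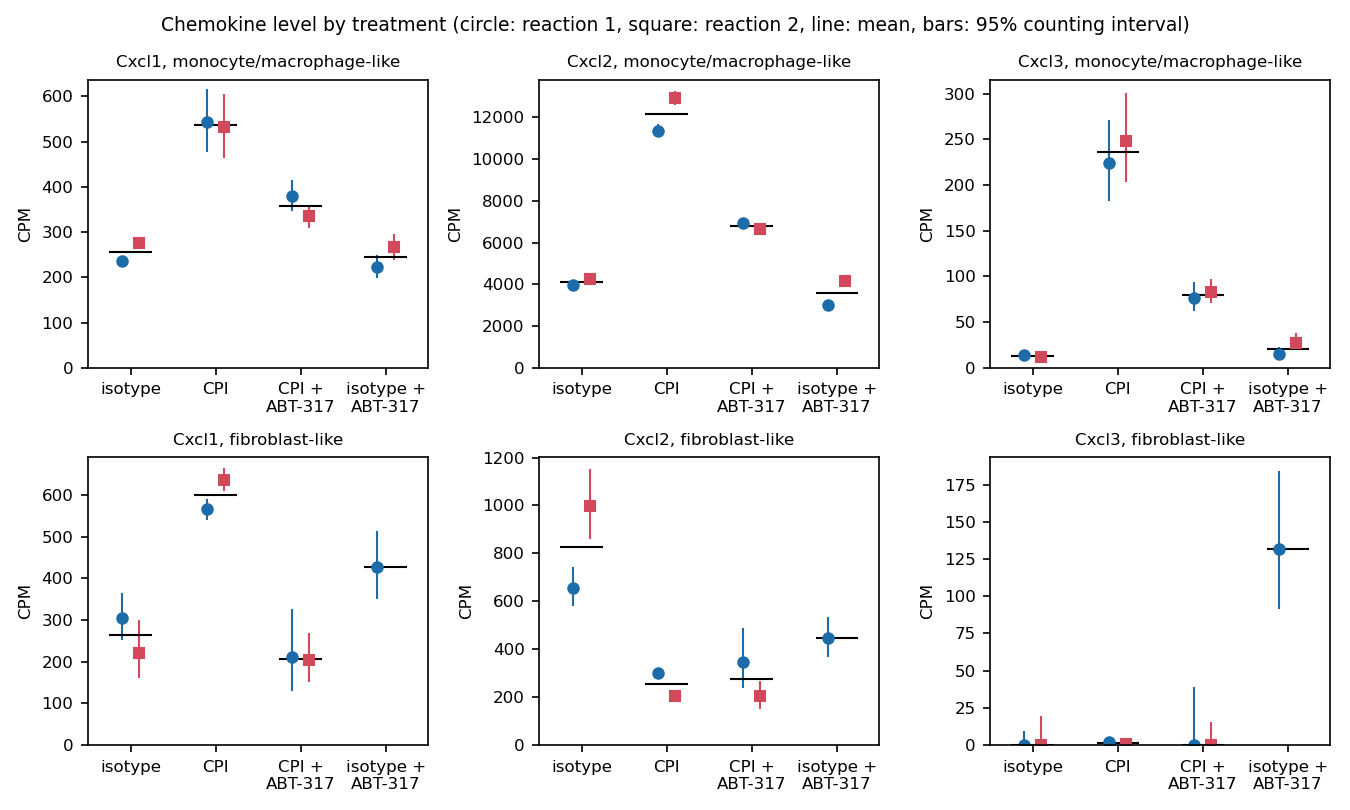
CPM of Cxcl1, Cxcl2 and Cxcl3 by treatment in the monocyte/macrophage-like cells (upper row) and fibroblast-like cells (lower row), with a circle for reaction 1, a square for reaction 2 and a line for their mean, for sums of at least 10 cells. Macrophage Cxcl2 is highest after CPI (11354 and 12932), with CPI + ABT-317 (6924 and 6653) next, and fibroblast Cxcl1 is highest after CPI (566 and 636).

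The macrophages of the treatments lay in different clusters. After CPI 88.6% and 82.3% of them were in a cluster led by Ccl6, Acp5 and Wfdc17, while 84.0% to 92.9% of those of the other treatments were in one led by Ccl4, Fcer1g and C1qa. At a finer resolution 72.4% and 78.3% of CPI macrophages were in a cluster led by Ccl6, Lyz1 and Wfdc17 that held at most 2.24% of the macrophages of any other treatment, whereas CPI + ABT-317 macrophages were mainly (60.1% and 60.9%) in a cluster led by Cd14, Il1b and Ccl4. Cxcl2 differed widely between these states within isotype alone, at 9562 and 9713 CPM in the Cd14, Il1b and Ccl4 cluster and 1320 and 1305 CPM in the Aif1, C1qc and Cd52 cluster, which held 35.5% and 41.3%, and 40.1% and 41.3%, of isotype macrophages. The Cd14, Il1b and Ccl4 cluster held cells of every treatment, and there Cxcl2 had 16626 and 14207 CPM after CPI (22 and 28 cells), 11238 and 10635 after CPI + ABT-317 and 7657 and 9946 after isotype + ABT-317.

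Within that cluster the CPI increase passed for Cxcl3 (log2 3.71, adjusted p = 4.21e-07) but not for Cxcl2 (0.50, adjusted p = 0.106) or Cxcl1 (0.11, adjusted p = 0.887), with 5.37% of 6464 genes called. The decrease after CPI + ABT-317 likewise passed for Cxcl3 (-1.78, adjusted p = 0.0114) and not for Cxcl2 (-0.37, adjusted p = 0.374) or Cxcl1 (-0.20, adjusted p = 0.860), with 1.62% called. Cxcl3 itself was uneven there, at 37.6 and 26.3 CPM after isotype and 152 and 736 CPM after CPI (9 and 54 UMIs). The 2 larger clusters of the coarser resolution, whose cells overlap with the finer ones, gave other calls. In the one led by Ccl4, Fcer1g and C1qa, with 29 and 36 CPI cells, the CPI increase passed for Cxcl3 (4.30, adjusted p = 2.23e-05) and Cxcl2 (log2 1.0, adjusted p = 0.00467) and not for Cxcl1 (0.68, adjusted p = 0.353), with 4.11% of genes called. The decrease after CPI + ABT-317 passed there for Cxcl3 (-1.95, adjusted p = 0.0351) and not for Cxcl2 (-0.48, adjusted p = 0.291) or Cxcl1 (-0.37, adjusted p = 0.750), with 0.702% called. In the cluster led by Ccl6, Acp5 and Wfdc17 all 3 increases and all 3 decreases passed, but so did 62.7% and 51.7% of all genes tested, and median depth there was 1417 and 18369 UMIs after isotype against 1375 and 1689 after CPI. The part of that depth difference was not tested.

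**Figure D5:**
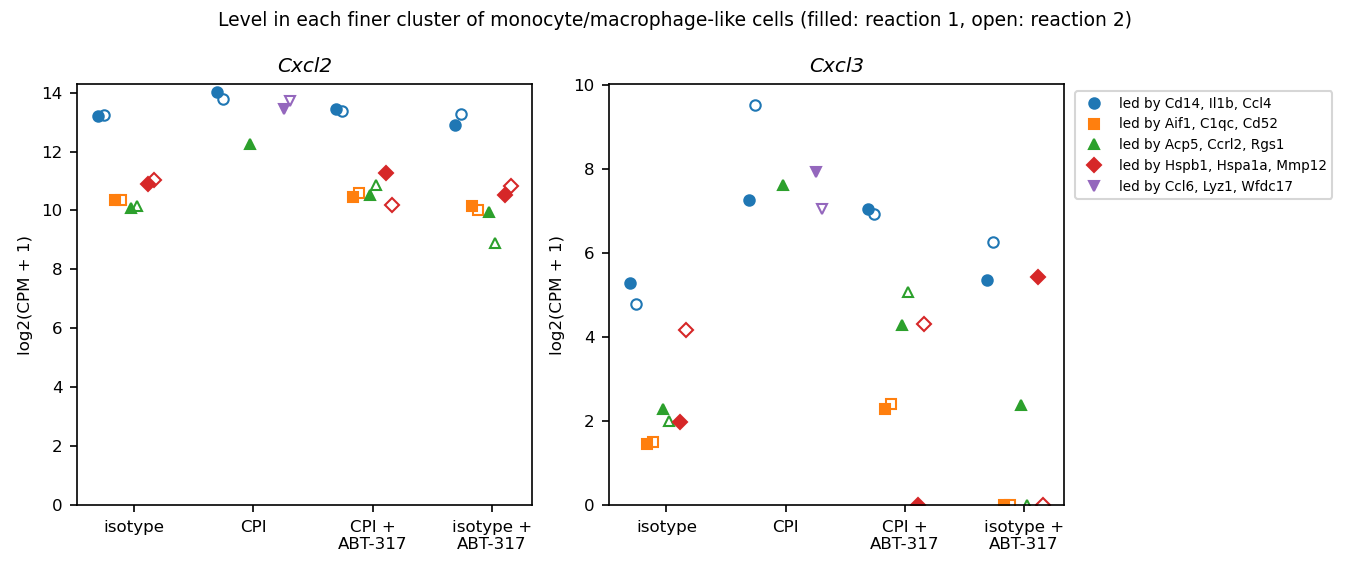
Cxcl2 and Cxcl3 as log2(CPM + 1) in the finer monocyte/macrophage-like clusters by treatment, with filled points for reaction 1 and open points for reaction 2. Isotype Cxcl2 is 9562 and 9713 CPM in the cluster led by Cd14, Il1b and Ccl4 and 1320 and 1305 CPM in the one led by Aif1, C1qc and Cd52, and the cluster led by Ccl6, Lyz1 and Wfdc17 is almost all CPI cells.

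In the fibroblast-like cells Cxcl1 was higher and Cxcl2 lower after CPI. Cxcl1 had 305 and 222 CPM after isotype, 566 and 636 after CPI, 211 and 203 after CPI + ABT-317 and 427 in the single isotype + ABT-317 sum with enough cells. CPI raised it 2.47-fold (log2 1.30, SE 0.24, adjusted p = 0.000183, 19.5% of 5518 genes called), and CPI + ABT-317 lowered it 3.11-fold against CPI (-1.64, SE 0.27, adjusted p = 0.000113, 11.4% called). The latter did not pass among cells with fewer than 2500 genes (adjusted p = 0.167), where only 0.553% of 1988 genes were called. Cell numbers were very unequal, with 52 and 19 after isotype, 879 and 677 after CPI, 11 and 23 after CPI + ABT-317 and 24 after isotype + ABT-317.

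Cxcl2 had 657 and 998 CPM in isotype fibroblast-like cells and 300 and 207 after CPI, 2.91-fold lower (log2 -1.54, SE 0.25, adjusted p = 3.34e-05). It had 348 and 203 CPM after CPI + ABT-317 and 446 after isotype + ABT-317. T-like cells had mean Cxcl2 levels of 810 CPM after isotype (118 UMIs), 423 after CPI (521 UMIs) and 151 after CPI + ABT-317 (7 UMIs in 17 cells). The part of background in the fibroblast-like values, and in their drop after CPI, was not tested. Marker lists differed between the treatments within the class, with macrophage markers at 2105 and 3507 CPM after isotype, 1163 and 1040 after CPI, 1855 and 1662 after CPI + ABT-317 and 1000 after isotype + ABT-317, and fibroblast markers at 30006 and 18650, 83090 and 91387, 47475 and 53459, and 16096 CPM. Their part in either gene was not tested. Cxcl3 passed between the single isotype + ABT-317 sum of 24 cells, taken to vary like the other sums, and isotype (adjusted p = 0.0415, 0.598% called), from 0 UMIs to 132 CPM, at least 8.32-fold over the limit that a count of 0 allows in the shallower isotype sum, but all 34 UMIs came from 1 of those 24 cells, which also held all 7 Cxcl5 UMIs of the sum. The treatment had no second sum to check it, and with the reaction as a block (adjusted p = 0.242) or without the first isotype sum (0.241) it did not pass. Cxcl5 was not tested, with 1 and 0 UMIs after isotype, 28 and 5 after CPI and 2 and 3 after CPI + ABT-317.

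Among the Ptprc-low cells Cxcl1 was again highest after CPI. It had 126 and 127 CPM after isotype, 620 and 819 after CPI, 271 and 337 after CPI + ABT-317 and 135 and 157 after isotype + ABT-317. CPI raised it 5.16-fold (log2 2.37, SE 0.15, adjusted p = 4.83e-05, 7.82% of 14940 genes called), and CPI + ABT-317 lowered it 2.12-fold against CPI (-1.09, SE 0.15, adjusted p = 0.00627, 2.14% called). Only 62 and 35 Ptprc-low cells carried the CPI hashtag, against 3381 and 3357 for isotype, 1367 and 1536 for CPI + ABT-317 and 1987 and 1700 for isotype + ABT-317. The decrease did not pass without the second CPI sum (adjusted p = 0.0997) or among cells with fewer than 2500 genes (0.640). Summed fibroblast markers in these cells were 2230 and 2366 CPM after isotype, 1122 and 1008 after CPI, 1661 and 1582 after CPI + ABT-317 and 1692 and 1846 after isotype + ABT-317, and macrophage markers were 245 and 209, 451 and 292, 316 and 379, and 236 and 206 CPM. Their part in the Cxcl1 level was not tested.

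The other members were low in these cells. Cxcl2 had 29.7 and 17.8 CPM after isotype, 106 and 22.5 after CPI, 43.1 and 31.9 after CPI + ABT-317 and 27.8 and 17.9 after isotype + ABT-317, and Cxcr2 lay between 0.851 and 5.63 CPM, the highest from 5 UMIs. With the reaction as a block, 4 more calls were made, Cxcl2 after CPI (log2 1.37, adjusted p = 3.85e-05), Cxcl2 in CPI + ABT-317 against CPI (-0.67, adjusted p = 0.0399), and Cxcl1 (0.26, adjusted p = 7.03e-05) and Cxcl3 (2.10, adjusted p = 0.000763) in isotype + ABT-317 against isotype, where the unblocked fit called 0 members and 0.00669% of genes. The block also raised the share of all genes called, to 16.8% for CPI against isotype, 9.83% for CPI + ABT-317 against CPI and 25.2% for isotype + ABT-317 against isotype.

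In the neutrophil-like cells themselves no treatment difference could be resolved. Cxcl2 had 21136 and 6660 CPM after isotype, 32992 after CPI and 87892 after CPI + ABT-317 in the 4 sums of at least 10 cells, and the sums of 8 cells had 66232 CPM for the second CPI reaction and 65495 CPM for the first CPI + ABT-317 reaction. The fit thus set 1 CPI sum of reaction 1 against 1 CPI + ABT-317 sum of reaction 2. Only the isotype pair informed on the spread between sums, so these contrasts cannot decide whether treatments differ. Cxcl3 had 1537 and 214 CPM, 1127 and 2533 CPM, and 7423 and 5576 CPM in the isotype, CPI and CPI + ABT-317 reactions. The low second isotype values of both genes were set by the pair of deep cells described above. Without them the second isotype value of Cxcl2 was 33627 CPM, which is above its first CPI value, and the isotype and CPI values of Cxcl2 overlapped. The second isotype value of Cxcl3 was 1088 CPM without them. With 1 residual degree of freedom and 677 genes, edgeR called 0 genes in either contrast (0% called; 9 and 16 genes had an unadjusted p under 0.05, and DESeq2 also called 0). The log2 difference of Cxcl2 was 1.21 (SE 2.98, adjusted p = 0.999) for CPI against isotype and 1.35 (adjusted p = 0.965) for CPI + ABT-317 against CPI, the former being 0.12 among cells with fewer than 2500 genes. For Cxcl3 it was 0.36 (SE 1.14, adjusted p = 0.999) and 2.24 (SE 1.36, adjusted p = 0.965). Both CPI + ABT-317 reactions had more Cxcl3 than both CPI reactions, whereas in the macrophages they had less, and that difference between the classes was not tested. For Cxcl1 the values were 1.42 and 0.97 (adjusted p = 0.999 and 0.965), and no sum was large enough for isotype + ABT-317.

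Beyond the 5 members, a list of 42 genes for neutrophil recruitment (other chemokines and receptors, adhesion molecules, inducing cytokines and NF-kB genes) was read in the same fits. In monocyte/macrophage-like cells 17 of 31 tested genes were higher after CPI, 2 lower (Ccl3 and Ccl4, which attract monocytes and lymphocytes) and 12 not called, with a median log2 difference of 0.89 beside -0.04 over all genes, of which 16% were called higher and 12.2% lower. Ptafr, the receptor for platelet-activating factor, went from 25 and 21.5 to 147 and 115 CPM (log2 2.54, adjusted p = 1.69e-08). Tnfaip3, an NF-kB feedback inhibitor, went from 236 and 232 to 662 and 574 CPM (1.45, adjusted p = 9.69e-08), and Nfkb1, an NF-kB subunit gene, from 293 and 247 to 785 and 703 CPM (1.51, adjusted p = 1.63e-07). Pf4 (log2 1.46), Cxcr4 (1.43) and Ptgs2 (1.34), which code for a platelet-type chemokine, the CXCL12 receptor and cyclooxygenase-2, rose too. The other 11 were the adhesion genes Icam1 and Itgb2, the receptor genes Il1r1, Csf3r, Fpr1, Fpr2 and Ltb4r1, the cytokine genes Il6 and Il1b, the NF-kB subunit gene Rela and Zc3h12a, which codes for an RNase that degrades cytokine mRNAs.

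After CPI + ABT-317 8 of the 31 genes were lower than after CPI and 1, the integrin gene Itgal, was higher, with a median of -0.17 beside 0.02 over all genes, of which 10.2% were called lower and 6.82% higher. Ptafr (log2 -1.63), Cxcr4 (-1.31), Tnfaip3 (-1.16), Nfkb1 (-1.05), Pf4 (-0.86) and Ptgs2 (-0.59) were among the 8, with Il1r1 and Csf3r the others, and Ptafr then had 42.2 and 44.7 CPM. Between isotype + ABT-317 and isotype 0 were called in either direction (median -0.08 beside -0.01).

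In fibroblast-like cells 1 of 20 tested list genes was higher after CPI, Cxcl12, a stromal chemokine that retains CXCR4-bearing leukocytes, which went from 141 and 52.8 to 323 and 347 CPM (log2 1.79), and 7 were lower (median -0.18 beside -0.02, with 10.1% of all genes called higher and 9.35% lower). The lower ones were Ccl4 (-4.04), Tnf (-3.71), Ccl3 (-3.41), Il1b (-2.52), Ptgs2 (-1.19), Il1a and Pf4, of which Ccl4, Ccl3, Il1b and Tnf are typical macrophage products. The macrophage markers given for this class were also lower there, and their part in these list genes was not tested. After CPI + ABT-317 only Nfkbiz, an NF-kB cofactor, was lower than after CPI (-1.09, median -0.41 beside 0.01, with 6.27% of all genes called lower). In the single isotype + ABT-317 sum the list was also lower than after isotype, with a median of -0.84 beside -0.04 over all genes. Ccl4, Tnf, Il1b, Ccl3 and also Cxcl12, which was higher after CPI, were among the lower genes there.

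In Ptprc-low cells 6 of 27 were higher after CPI (median 0.27 beside -0.08, with 3.58% of all genes called higher). Ptgs2 went from 44.8 and 46.2 to 167 and 140 CPM (log2 1.62), and Il1r1, the interleukin-1 receptor gene (1.72), Tnfaip3 (1.12), Nfkbia (1.02), Rela (0.88) and Nfkb1 (0.80), all of the NF-kB pathway, were the other 5. After CPI + ABT-317 Ptgs2 (-1.03) and Rela (-0.65) were lower than after CPI (median -0.37 beside 0.08, with 0.863% of all genes called lower), and 0 were called between isotype + ABT-317 and isotype. In neutrophil-like cells 0 of 14 were called, with medians of 1.06 beside -0.09 for CPI against isotype and 0.85 beside -0.34 for CPI + ABT-317 against CPI.

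Over the 7 named classes, the genes whose log2(CPM + 1) followed each member most closely among 15438 genes were Tomm5, Mpv17l and Htra1 for Cxcl1 (Pearson r 0.997, 0.981 and 0.969), Vis1, Tomm6 and Clec4e for Cxcl2 (0.997, 0.989 and 0.986) and Tlr6, Mea1 and 4933432I03Rik for Cxcl3 (0.988, 0.986 and 0.986). For Cxcl5 they were Aldh1a1, Mmp27 and Efs, and for Cxcr2 Cstdc4, Gh and Gm5622 (0.993, 0.985 and 0.982). With 7 points from the same 2 libraries, and with Cxcl5 and Cxcr2 near 0 in most classes, these values are a description of likeness.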

How the data were processed

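MC38 tumor and tumor-draining lymph node cells were run on a 10x 5' kit (60000 cells loaded per reaction). The deposited count matrices hold raw UMI counts per gene and antibody. The file headers name Cell Ranger 8.0.1 for the MC38 matrices and 7.1.0 for the lymph node ones, the labels name 3.1.0 and GRCm38/mm10, and which is right was not settled. Depth and precision are given with each value, and intervals and limits cover counting error only.

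Cells with at least 200 genes and under 10% mitochondrial UMIs were kept. Hashtags were called per reaction with a mixture model on log counts (posterior above 0.5). Cells were clustered (2000 variable genes, 30 components, 15 neighbors, Leiden resolution 0.5, leidenalg 0.10.2) and classes named from fixed markers (at least 3 with fold 1.5). Members and lists were chosen with earlier results of these data known. The text names all 5 members, for each the 3 genes most like it, and up to 6 called list genes per contrast by adjusted p, with others called afterwards by name only.

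UMIs summed per treatment, reaction and class (at least 10 cells) were tested with edgeR 4.0.16 (glmQLFTest, TMM, filterByExpr, Benjamini-Hochberg over all genes, 0.05), R 4.3.3. DESeq2 1.42.0 was an alternative. The SE is the log2 change divided by the root of F. The Ptprc-low class was fitted in place of a tumor-like class after the data were seen. In simulated CPI and isotype sums, 2-fold changes were recovered for 36.0% (neutrophil-like, 646 genes), 40.4% (monocyte/macrophage-like, 9189), 39.8% (fibroblast-like, 5133) and 39.8% (Ptprc-low, 14710), and 4-fold changes for 73.8%, 83.8%, 88.4% and 81.4%. The simulation gave every class the same fixed spread, not its measured one, and changed only genes above a set expected count. These shares therefore do not measure the power of the real fits, that of the neutrophil-like cells included. The reaction number marks a shared library and so pairs the sums, and their deviations correlated at 0.0901 to 0.319 in monocyte/macrophage-like, 0.0401 to 0.124 in fibroblast-like and 0.0686 to 0.478 in Ptprc-low cells.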

Additional observations from a re-analysis of the deposited data

Results flagged for a closer look

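The Ly-6G antibody count of the neutrophil-like cells was singled out because antibody counts lie outside the gene counts that the comparisons rest on. Its lower median was 59 UMIs per cell, against 20 to 27 in the other classes, while isotype control antibodies had medians of 12 and 15 in the same cells. Ly6g RNA had 0 UMIs in these cells. Groups of 2 reactions are too small for a check of single distant values.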

How the results depend on the processing

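Of the single-gene values under other settings, 203 kept their direction and call, 21 kept the direction without passing the threshold and 3 reversed, and the cause was not tested except where fewer cells or genes entered. This count covers members called in the main fits and all tested members of the neutrophil-like cells. In the latter no setting called any gene, so only a change of direction could count there. New calls of other members under a setting did not enter it. Highest-class levels moved with cell choice. Counting barcodes with several hashtags gave Cxcl1 408, Cxcl2 19368, Cxcl3 1029, Cxcl5 2.32 and Cxcr2 62.5 CPM, cells with fewer than 2500 genes gave Cxcl2 44295 and Cxcr2 133 CPM, and Leiden resolution 1.0 gave Cxcr2 77.3 CPM. The neutrophil-like share after CPI was 0.457% with a hashtag lead of 1 log unit, and after CPI + ABT-317 it was 3.2% with that lead, 2.00% with the lead over background and 2.82% under 2500 genes. Neutrophil-like Cxcl3 for CPI against isotype turned to log2 -0.38 under 2500 genes.

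Member calls in monocyte/macrophage-like cells numbered 6. They numbered 3 in cells of 1000 to 3000 UMIs, 3 in the main cluster alone (cluster 0) and 2 in the finer Cd14, Il1b and Ccl4 cluster. The shares of all genes called in the CPI contrasts of those settings are given above. In the finer Acp5, Ccrl2 and Rgs1 cluster CPI had 1 sum of 42 cells, taken to vary like the others. Cxcl1 turned there to -1.29 for CPI against isotype and 2.00 for CPI + ABT-317 against CPI. Fibroblast-like calls numbered 4, and 2 under 2500 genes, where both CPI contrasts called 148 and 11 of 1988 genes in all. Ptprc-low calls numbered 2, 5 without the low-count filter (1892, 853 and 180 of 25028 genes called in the 3 contrasts), 6 with the replicate block and 1 under 2500 genes (14, 9 and 0 of 7355). Leaving out single replicates left 1 sum in a treatment, so no count of calls is given for those fits. The replicate block kept all 6 monocyte/macrophage-like calls, with 3212 and 2071 of 9312 genes called in the 2 CPI contrasts. It kept 3 of 4 fibroblast-like calls, with 990 and 537 of 5518 genes called in those contrasts, and was not possible in neutrophil-like cells. Not run for want of cells were the UMI window in neutrophil-like and fibroblast-like cells and both hashtag leads in neutrophil-like cells. In the Ptprc-low UMI window and in 2 further finer macrophage clusters only isotype + ABT-317 against isotype could be fitted, with 0 of 662, 2 of 5922 and 0 of 791 genes called. Without the second CPI + ABT-317 sum in neutrophil-like cells and without the isotype + ABT-317 sum in fibroblast-like cells, the contrasts with those treatments could not be fitted. The fit in tumor-like cells was not run because no class was called so.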
